A study of Mus musculus with 4 samples.

Results

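These results concern 529 short regions of the mouse genome in which 3 forms of the TFIID subunit TAF3 all left integrations of an HIV-based vector. Each is one of the foci of the wild-type PHD finger, a focal region made of a run of 4 or more integration junctions of that library with gaps of at most 1000 bp, with 500 bp added on each side. A junction is the base at which the vector met the chromosome, counted once per chromosome, strand and position. Of 1734 such foci, the 529 described here also held at least 1 junction of wild-type full-length TAF3 and at least 1 junction of the PHD finger with the M880A substitution. That is 30.5% of all foci (Wilson 95% interval 28.4 to 32.7). Full-length TAF3 with M880A played no part in the choice. It is therefore the readout inside the foci by which they can be compared with other foci.

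TAF3 is a subunit of TFIID, the general transcription factor that recognises core promoters and helps to assemble RNA polymerase II there. Its PHD finger is a small zinc-binding domain that reads histone H3 trimethylated on lysine 4, the mark of nucleosomes around the start sites of active genes. The M880A substitution replaces a methionine of this finger by alanine and is used to weaken the reading of the mark. In HIT-seq, the protein of interest carries the part of LEDGF (product of Psip1) that binds HIV integrase. LEDGF is the chromatin factor that normally guides the integrase to active genes. In cells without LEDGF the fusion takes over this task, and the vector is left near the places where the fusion sits.

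All 4 groups were mouse embryonic fibroblasts of the Psip1 -/- line E2, of strain C57BL/6, so every cell lacked LEDGF. They received plasmids for full-length TAF3 (Full) or its PHD domain alone (PHD), wild type (WT) or with M880A, each joined to the LEDGF domain. Cells were sorted for GFP 24 to 36 h after nucleofection. They were then infected with 500 ng of a VSV-G pseudotyped luciferase vector, with polybrene at 8 ug per mL. Harvest followed 48 to 72 h later. The fusions came from introduced plasmids, and integration marks where a fusion and an incoming vector met, so the readout is of tethering and not of binding itself. Each group had 1 library. No difference below has a replicate check, no test was run, and intervals cover counting error only.

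The lists held 25363 junctions for PHD WT, 22486 for Full WT, 34888 for PHD M880A and 39292 for Full M880A. The Full WT reads came from one flow cell and those of the other 3 libraries from lanes of another, so for Full WT flow cell and form cannot be told apart. Because the lists differ in length, counts are also given as shares of a library. Positions are mm9. Gene names and bases were not assigned to the foci here.

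The 5 foci with the most PHD M880A junctions are described first, as the extreme of these regions and not as typical of them. On chromosome 19, chr19:5796524-5800621 (4098 bp) held 15 PHD WT, 8 Full WT, 20 PHD M880A and 7 Full M880A junctions. Its 20 PHD M880A junctions, 10 on each strand, spread over 3711 bp, and none was at a position that another library used. They fell into a left group of 7, between 354 and 1574 bp from the left edge, and a right group of 13, between 2874 and 4065 bp. Of the 15 PHD WT junctions 9 lay in the stretch between these groups, and their median was at 2527 bp. On chromosome 11, chr11:86397381-86400306 (2926 bp) held 14, 7, 12 and 6 junctions in the same order. Here the PHD M880A junctions spread over 2396 bp, most of the region.

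Next came chr11:120206387-120211508 (5122 bp), which held 9 PHD WT, 17 Full WT, 9 PHD M880A and 11 Full M880A junctions. Its PHD M880A junctions were in the left part, with a median position of 401 bp against 1838 bp for PHD WT, and 5 of the 9 lay within the leftmost 401 bp. Full WT and Full M880A junctions ran from 169 to 4856 bp. At chr3:58220176-58225220 (5045 bp) there were 24, 4, 9 and 7 junctions, and PHD M880A and PHD WT had nearly the same median position, 2829 and 2703 bp. At chr4:88580103-88584292 (4190 bp) there were 16, 3, 9 and 7 junctions, and the medians were 1090 and 2503 bp. In these 5 foci the PHD M880A junctions did not always share the centre of the PHD WT junctions. The 500 bp of padding at each edge can hold no PHD WT junction, but it can hold those of other libraries. All 5 PHD M880A junctions within the leftmost 401 bp of chr11:120206387-120211508 lay in it. At chr4:88580103-88584292 those at 6, 260 and 469 bp did too. The PHD M880A and PHD WT medians are therefore not fully comparable.

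**Figure D1:**
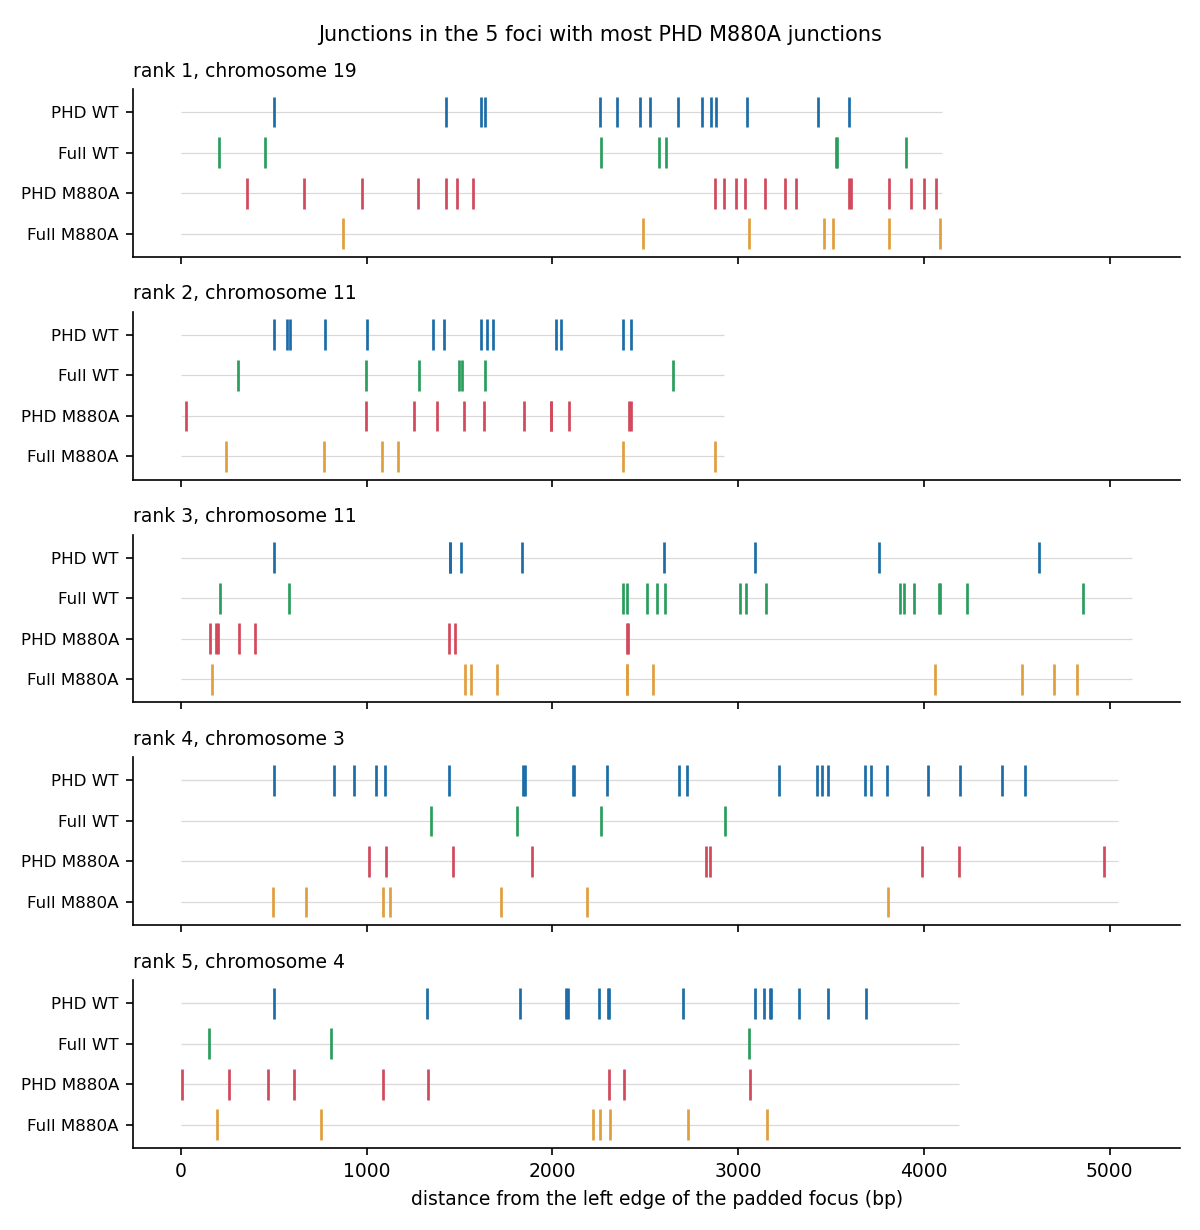
Positions of all junctions in the 5 foci with the most PHD M880A junctions, as distance in bp from the left edge of the padded region (x axis). Each row is a library and each tick a distinct junction, both strands pooled. In the chromosome 19 region the PHD M880A ticks form groups of 7 and 13, and in the lower chromosome 11 region 5 of 9 lie within 401 bp of the left edge. These 5 are in the 500 bp of padding, where by construction no PHD WT junction can lie.

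The next 5 foci by PHD M880A junctions were on chromosomes 19, 19, 1, X and 2, the last being 1 of 5 tied at 7 and taken by the larger sum over the 4 libraries. The region chr19:5800701-5802815 held 11 PHD WT, 11 Full WT, 8 PHD M880A and 10 Full M880A junctions, and chr19:5842070-5845503 held 11, 11, 8 and 9. In both, the 4 libraries differed by at most 3 junctions. The region chr1:164147423-164151514 held 11, 3, 8 and 4 junctions, chrX:18739999-18744186 held 9, 5, 8 and 4, and chr2:166885883-166891577 held 17, 13, 7 and 10. Together with chr19:5796524-5800621 and with chr19:5724680-5726711 (8, 3, 1 and 4 junctions), these chromosome 19 foci lay within 120.8 kb. These 4 foci held 37 of all PHD M880A junctions in the 529 foci, or 4.0%.

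Such dense foci were the exception. Of the 529, 342 (64.7%) held 1 PHD M880A junction, 105 held 2, 40 held 3 and 42 held 4 or more. Foci with 4 or more made up 2.42% of all 1734 foci, and all 42 of them had a Full WT junction. The lowest, median and highest counts per region were 1, 1 and 20 for PHD M880A, 4, 7 and 31 for PHD WT, and 1, 3 and 18 for Full WT. For Full M880A they were 0, 2 and 23. The foci were 1087 to 6346 bp wide with a median of 2434 bp, and together covered 1379 kb, 0.0537% of the span between the outermost junctions of each chromosome.

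The rule chose on PHD WT, Full WT and PHD M880A, so the levels of these libraries inside the foci are a description. The 529 foci held 17.3% of the PHD WT junctions, 9.29% of Full WT and 2.65% (2.49 to 2.83) of PHD M880A. For Full M880A, which did not enter the rule, the share was 3.44% (3.27 to 3.63). In 4 foci the PHD M880A count reached that of PHD WT, as in 0.231% of all foci. Besides chr19:5796524-5800621 and chr11:120206387-120211508 they were chr10:119909536-119911986, with 4 PHD WT, 2 Full WT, 5 PHD M880A and 3 Full M880A junctions, and chr16:23107923-23109726, with 4, 4, 5 and 1. PHD M880A also had more junctions in all. As a share of the library PHD M880A stayed below PHD WT in every region, a direction that the choice of foci by PHD WT favours.

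**Figure D2:**
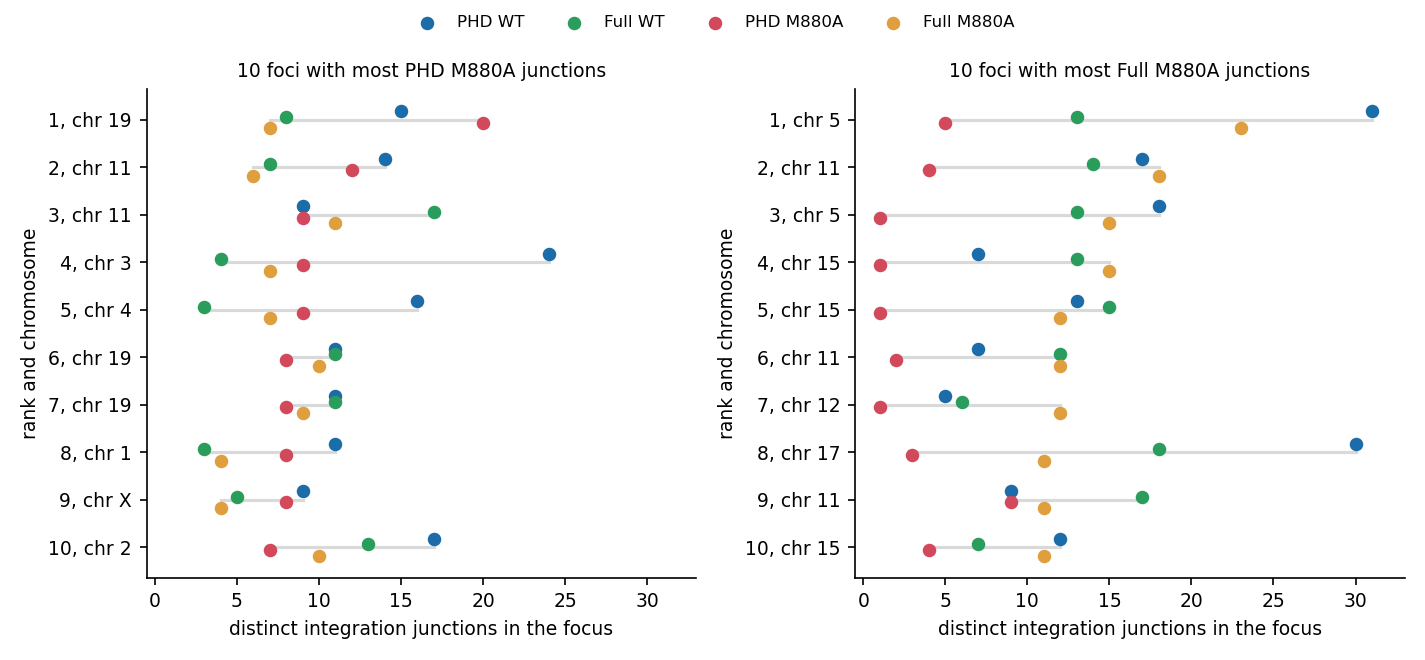
Distinct junctions per region (x axis) for each library, a coloured dot each, in the 10 foci with the most PHD M880A junctions (left) and the 10 with the most Full M880A junctions (right). Grey lines span the lowest to the highest library. On the right 4 of the 10 foci hold a single PHD M880A junction beside 12 to 15 of Full M880A.

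At the edge of the rule, 1 PHD M880A junction decided membership. The widest foci with exactly 1 were chr11:106646731-106651985 with 10 PHD WT, 6 Full WT and 4 Full M880A junctions, chr1:151944864-151950060 with 10, 1 and 1, and chr3:95029937-95034705 with 17, 5 and 3. Just outside, the fullest foci with Full WT and no PHD M880A junction were chr11:120094144-120099697 with 25 PHD WT, 17 Full WT and 17 Full M880A junctions, chr3:88334129-88340344 with 23, 10 and 0, and chr11:95863817-95869736 with 21, 9 and 2. Runs of 3 PHD WT junctions, which the rule leaves out, held both other libraries in 93 of 841 cases (11.1%), compared with 95 of 512 (18.6%) for runs of 4.

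Full M880A junctions were present in most of these foci. At least 1 was found in 407 of 529 foci, or 76.9% (73.2 to 80.3), where the value over all 1734 foci was 66.3%. The nearest foci outside the rule are the 883 that held Full WT but no PHD M880A junction, and 589 of them, 66.7% (63.5 to 69.7), had a Full M880A junction. The difference was 10.2 percentage points (5.39 to 14.9). Per kb of region, Full M880A had 0.980 junctions (0.929 to 1.03) in the 529 and 0.787 (0.748 to 0.828) in the 883, a ratio of 1.25 (1.16 to 1.34). With membership set by PHD M880A alone, whatever Full WT, the ratio was 1.3 (1.2 to 1.4), and it then used libraries of a single flow cell only.

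The 529 foci were also larger. Their median width was 2434 bp against 2072 bp in the 883, their median number of PHD WT junctions 7 against 5, and Full WT junctions per kb 1.51 against 1.34. Of the foci with a Full WT junction, those with 4 PHD WT junctions were members in 26.1% of cases (21.9 to 30.8), those with 5 to 6 in 30.2% (26.1 to 34.7), those with 7 to 9 in 38.5% (33.5 to 43.7), and those with 10 or more in 63.5% (57.6 to 69.1). Within the 3 smaller size classes the shares with Full M880A differed by about 3 points between members and other foci. In foci of 4 PHD WT junctions, 62.1% of members and 58.7% of the others had a Full M880A junction, and in foci of 5 to 6 the shares were 64.1% and 61.1%. In foci of 7 to 9 they were 81.3% and 78.5%. The intervals of these 3 differences held 0, from -8.19 to 14.3, from -6.97 to 12.6 and from -6.11 to 11.1 points. In foci of 10 or more, 155 of 169 members (91.7%) and 78 of 97 others (80.4%) had one, a difference of 11.3 points (2.88 to 20.9).

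The ratio of Full M880A densities between members and the 883 was 1.19, 1.01, 1.06 and 1.14 in the 4 classes in order of size, and each of the 4 intervals held 1. Pooled over the classes (Mantel-Haenszel), it was 1.10 (1.01 to 1.18). With classes of both PHD WT and Full WT junctions it was 1.02 (0.947 to 1.11), and this interval holds 1. The pooled ratio of 1.25 therefore did not hold among foci alike in both wild-type counts.

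**Figure D3:**
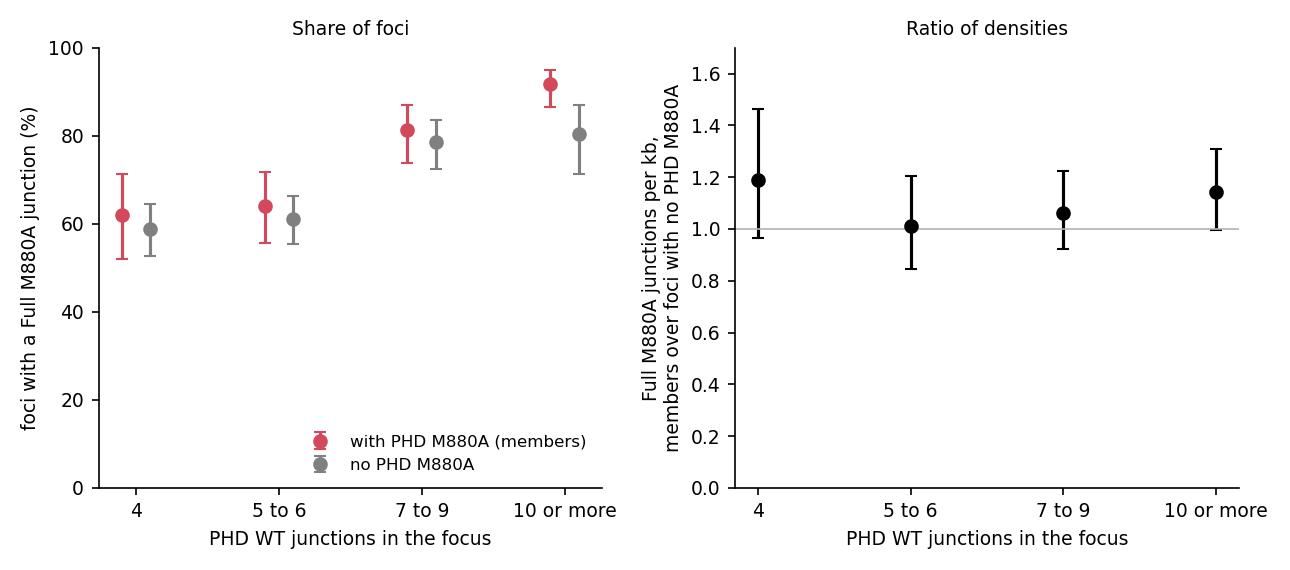
Left, percent of foci with at least 1 Full M880A junction (y axis) by the number of PHD WT junctions in the region (x axis), for the 529 members (red) and the 883 foci with Full WT and no PHD M880A junction (grey), with Wilson 95% intervals. Right, the ratio of Full M880A junctions per kb between them, with exact 95% counting intervals. In both groups the share is higher in larger foci, from 62.1% and 58.7% to 91.7% and 80.4%, and all 4 ratios lie between 1.01 and 1.19.

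The foci richest in Full M880A held from 1 to 9 PHD M880A junctions. At chr5:143574791-143579143 there were 23 Full M880A junctions beside 31 PHD WT, 13 Full WT and 5 PHD M880A. At chr11:120047167-120051418 there were 18 beside 17, 14 and 4. Full M880A reached 15 at chr5:123588741-123592453 (18 PHD WT, 13 Full WT and 1 PHD M880A) and at chr15:78672756-78675588 (7, 13 and 1). It reached 12 at chr15:81686481-81690676 (13, 15 and 1), at chr11:102178258-102181337 (7, 12 and 2) and at chr12:88223669-88226643 (5, 6 and 1). Full M880A was the most frequent of the 4 libraries by count at chr11:120047167-120051418, chr15:78672756-78675588 and chr12:88223669-88226643.

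The last 3 of the 10 were taken from 7 foci tied at 11 Full M880A junctions, by the larger sum over the 4 libraries. They were chr17:24855355-24861700 with 30 PHD WT, 18 Full WT, 3 PHD M880A and 11 Full M880A, chr15:81416048-81419091 with 12, 7, 4 and 11, and chr11:120206387-120211508, the only one also among the 10 with the most PHD M880A. The other 4 tied foci, chr8:86724616-86727786, chr9:107535479-107537707, chr10:80393089-80395686 and chr17:46690254-46693371, each held 1 PHD M880A junction. Counts of 10 or more Full M880A junctions occurred in 23 of the 529 foci (4.35%, 2.91 to 6.44), against 1.96% of all foci and 11 of the 883 (1.25%, 0.697 to 2.22). These shares were not compared among foci of like size.

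At the other end, 122 of the 529 foci had no Full M880A junction at all. They had a median width of 2112 bp, a median of 5 PHD WT and 2 Full WT junctions, and 94 of them held a single PHD M880A junction. The 407 with Full M880A had a median width of 2603 bp and medians of 8 and 4. Some of the 122 were nevertheless full of wild-type junctions. The region chr1:135027656-135031589 held 23 PHD WT, 8 Full WT and 2 PHD M880A junctions, and chr10:80259303-80263410 held 20, 15 and 1, each with 0 of Full M880A. The longest of the 4 lists thus had no junction in foci where both wild-type forms had 8 or more.

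Set against each other as shares of their libraries, Full M880A was above PHD M880A in 230 of the 529 foci (43.5%), where the value over all foci was 54.4%. The rule requires a PHD M880A junction, which lowers the first value. The exact interval of the ratio, not adjusted for 529 foci, lay above 1 in 18 and below 1 in 2. No such count was made over all foci, so these numbers describe the 529 and set them apart from no others. In the 342 foci with 1 PHD M880A junction the interval could not lie below 1. Even with 0 Full M880A junctions its upper end was 34.6 there, and 4.73 and 2.15 in foci with 2 and 3. The largest ratios were at chr5:123588741-123592453 and chr15:78672756-78675588, each with 15 against 1 (13.3, 2.05 to 561). The 2 below 1, named after their values were seen, were chr19:5796524-5800621 with 7 against 20 (0.311, 0.111 to 0.765) and chr2:98505970-98507942 with 1 against 7 (0.127, 0.00281 to 0.987). How uniquely reads map to the chromosome 2 region was not analysed here, and its counts may not all belong there.

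Full M880A was compared with Full WT in the same foci as shares of each library. The ratio over the 529 foci was 0.371 (0.346 to 0.397), over the 883 it was 0.336 (0.315 to 0.358), and over all 1734, with no condition on Full WT, 0.382 (0.364 to 0.399). The first 2 sets were chosen to hold Full WT, which favours low ratios, and the libraries came from different flow cells. Full M880A equalled or exceeded Full WT in 46 foci (8.70%, 6.58 to 11.4), against 100 of the 883 (11.3%, 9.40 to 13.6) and 27.0% of all foci, which include those without Full WT. For PHD M880A over PHD WT the ratio over the 529 foci was 0.154 (0.143 to 0.165) and over all 1734 foci 0.0634 (0.0594 to 0.0676). Only the latter was free of a condition on PHD M880A, and both sets were chosen by PHD WT.

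The foci as a whole were not chosen by PHD M880A, so its enrichment in them can be measured. In all 1734 foci, PHD M880A junctions were 5.29 times (4.88 to 5.72) as dense as in the 10 kb on either side, other foci being left out of these flanks. The same ratio was 10.0 (9.53 to 10.6) for Full M880A and 22.3 (21.1 to 23.6) for Full WT. The ratios depended on the flank, at 4.10, 6.73 and 14.6 with 5 kb and 8.51, 21.2 and 48.0 with 50 kb, in the same order of libraries at each width. Of all 1734 foci, 34.7% held PHD M880A and 81.4% held Full WT. The PHD finger with M880A was thus found in the foci more often than beside them, and the contrast was smaller than for both full-length forms.

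The flanks of the 529 foci were examined because the rule did not use Full WT, PHD M880A or Full M880A junctions there. For PHD WT the flanks were not free of the rule. The gap that ends a run is wider than the padding. Each flank therefore begins with a stretch that can hold no PHD WT junction, and other PHD WT foci were left out. The PHD WT densities and ratios below are thus partly set by the rule and are no independent contrast to the M880A ratios. In the 10 kb on each side, PHD M880A had 611 junctions on 10429 kb, or 0.0586 per kb, and beside the 883 foci 834, or 0.0491 per kb, a ratio of 1.19 (1.07 to 1.33). For Full M880A the densities were 0.102 and 0.0780 per kb (ratio 1.31, 1.21 to 1.42), and for Full WT 0.0609 and 0.0551 (1.10, 0.997 to 1.22). For PHD WT, which no longer forms foci there, they were 0.0298 and 0.0281 (1.06, 0.916 to 1.23). At 10 kb both M880A libraries were denser beside the 529 foci beyond counting error, and the intervals of both WT libraries held 1. The intervals of both M880A ratios still overlapped those of both WT ratios, and a difference between M880A and WT was not tested. The PHD WT ratio at 10 kb joined unlike distances. From 5 to 10 kb PHD WT was sparser beside the 529 foci, at 0.00998 per kb (0.00745 to 0.0131). Beside the 883 it was at 0.0172 (0.0145 to 0.0203), and these intervals did not overlap. Closer in, the WT intervals no longer held 1. In flanks of 5 kb all 4 ratios lay above 1, at 1.33 (1.17 to 1.52) for PHD M880A, 1.35 (1.23 to 1.48) for Full M880A, 1.16 (1.03 to 1.3) for Full WT and 1.28 (1.08 to 1.51) for PHD WT. In flanks of 50 kb the ratios were 1.11 (1.04 to 1.18) and 1.14 (1.08 to 1.20) for PHD and Full M880A, and the WT intervals again held 1. The larger size of the 529 foci goes along with this difference, and its part in it was not tested.

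The libraries thinned out with distance at unlike rates. Around the 529 foci, Full WT had 1.51 junctions per kb inside, 0.255 within 1 kb of the edge, 0.111 from 1 to 2 kb and 0.0376 from 2 to 5 kb. Full M880A had 0.980, 0.346, 0.195 and 0.0743 at the same distances. PHD M880A had 0.671 inside, where the rule requires it, and 0.119, 0.0856 and 0.0676 in these rings. From 2 to 5 kb PHD M880A was at 0.0676 per kb (0.0588 to 0.0774) beside the 529 foci and 0.0484 (0.0426 to 0.0548) beside the 883. From 5 to 10 kb the values were 0.0357 and 0.0367, with overlapping intervals. Between 20 and 50 kb the Full M880A values were 0.0297 and 0.0285 and the PHD M880A values 0.0261 and 0.0253, again with overlapping intervals. In the ring from 2 to 5 kb the PHD M880A intervals of the 2 sets of foci did not overlap, and in the other 5 rings they did (from 10 to 20 kb 0.0303 to 0.0375 and 0.0262 to 0.0314).

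**Figure D4:**
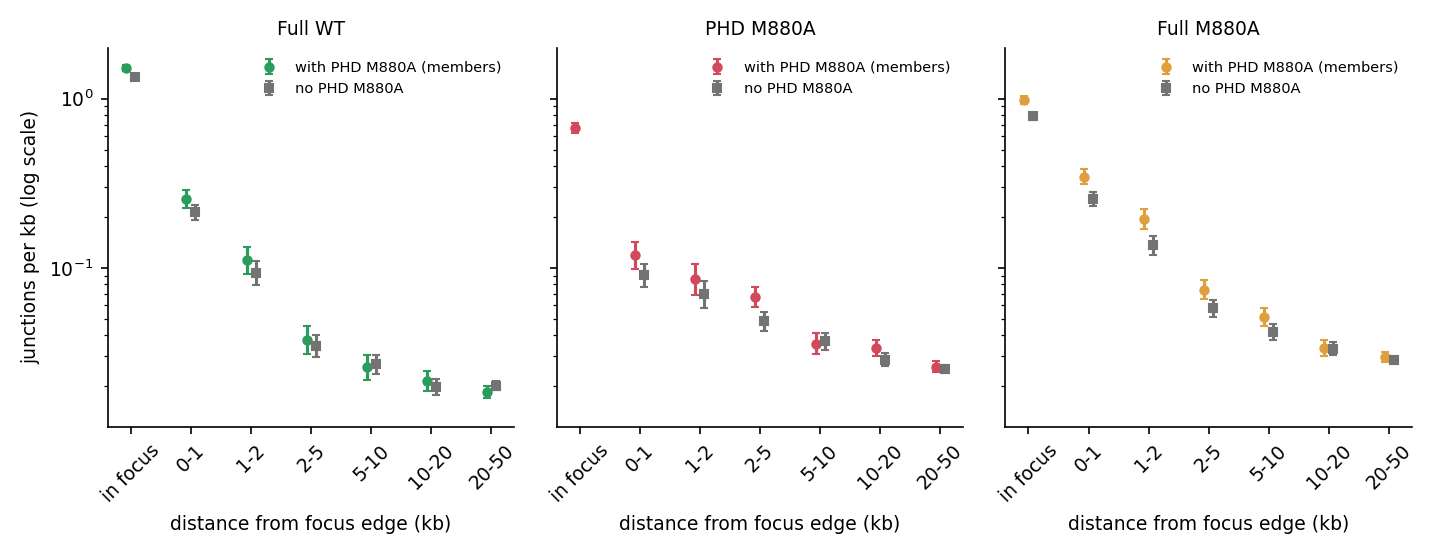
Junctions per kb (y axis, log scale) inside the foci and in rings of increasing distance from their edge in kb (x axis), for Full WT, PHD M880A and Full M880A, with exact Poisson 95% intervals. Coloured circles are the 529 members and grey squares the 883 foci with no PHD M880A junction, which by the rule have no PHD M880A point inside. From 2 to 5 kb PHD M880A is at 0.0676 beside members and 0.0484 beside the others, and Full M880A is at 0.074 and 0.058.

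Inside the foci the position of the junctions was compared between libraries. The middle 50% of the width of each region held 70.4% (69.0 to 71.7) of the PHD WT junctions, 66.2% (64.2 to 68.2) of Full WT, 62.4% (59.8 to 65.0) of Full M880A and 59.9% (56.7 to 63.0) of PHD M880A. Even spread would give 50%. The PHD M880A interval lay below that of Full WT, and the intervals of Full M880A and Full WT overlapped, as they did in the 883 foci at 65.6% (63.2 to 68.0) and 67.5% (65.7 to 69.3). The PHD WT value follows in part from the rule, since the padding holds no PHD WT junction. The stretch between the outermost PHD WT junctions makes up 61.6% of the width, and it held 78.0% of the Full WT, 77.2% (74.9 to 79.4) of the Full M880A and 71.4% (68.4 to 74.2) of the PHD M880A junctions. PHD M880A thus exceeded the share of the width there, and by less than the full-length forms.

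Closeness to single PHD WT junctions was similar across libraries. Positions within 100 bp of one made up 43.4% of the width and held 59.1% (57.0 to 61.2) of the Full WT, 56.1% (53.4 to 58.7) of the Full M880A and 54.3% (51.0 to 57.5) of the PHD M880A junctions. The intervals of the M880A forms overlap. Median distances to the nearest PHD WT junction were 75.5, 80 and 85 bp. In the 883 foci 56.6% (54.0 to 59.0) of the Full M880A junctions were this close, on 40.7% of the width. The strands were evenly used, with 49.8% (46.6 to 53.1) of the PHD M880A junctions and 50.5% (47.9 to 53.2) of the Full M880A junctions on the plus strand.

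The number attached to each listed site, taken as its reads, did not set the junctions in these foci far apart from others. PHD M880A junctions had a median of 24 reads inside the 529 foci and 23 elsewhere, and 71.0% (68.0 to 73.9) against 68.5% (68.0 to 69.0) had at least 10. For Full M880A the medians were 27 and 24, and the shares with at least 10 reads 66.8% (64.2 to 69.2) and 65.1% (64.6 to 65.6). In 92 foci (17.4%) no PHD M880A junction had 10 reads or more, and in 17 all had the minimum of 2. When every library was limited to junctions with at least 10 reads, 304 foci met the rule.

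Some junctions coincided between libraries to the base and strand. Of the 925 PHD M880A junctions in the 529 foci, 46 (4.97%, 3.75 to 6.57) were at a position of another library, against 0.147% elsewhere. Junctions of every library are also far sparser elsewhere, and whether this accounts for the difference was not tested. Of these 46 positions, 24 were in PHD WT, 18 in Full WT and 8 in Full M880A, some in more than 1. In 17 foci every PHD M880A junction was of this kind, and 508 foci met the rule with such positions left out of all libraries but PHD WT. Over the 4 libraries 307 of 8744 junctions in the foci (3.51%) coincided, and 415 foci had none. The region chr2:98505970-98507942, singled out after its values were seen, had 6 of 19, among them 2 of its 7 PHD M880A junctions. Whether these are separate events or carry-over between libraries was not tested.

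The 529 foci were spread over all 20 chromosomes listed. Chromosome 11 had the most, 53, and it also had the most PHD WT foci of any kind, 153. Chromosome 4 followed with 43 of 123 PHD WT foci. Chromosomes 5, 10 and 15 had 37 members each, of 120, 109 and 104. Chromosomes 14 and 18 had 9 of 47 and 8 of 37. As a share of the foci with Full WT on the same chromosome, members ranged from 23.4% (14.7 to 35.1) on chromosome 7 to 53.8% (38.6 to 68.4) on chromosome 12. The interval of chromosome 7 lies below that of chromosome 12, without adjustment for 20 chromosomes. Members were seldom adjacent to each other. Another member lay within 10 kb of 8 of them (1.51%) and within 100 kb of 92 (17.4%). Within 10 kb, 37 members (6.99%, 5.12 to 9.49) and 90 of the 883 (10.2%, 8.37 to 12.4) had another PHD WT region of any kind. These intervals overlap. Any other PHD WT region lay within 100 kb of 190 members (35.9%, 31.9 to 40.1) and of 346 of the 883 (39.2%, 36.0 to 42.4), and these intervals overlap.

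Seen from the other libraries, these foci took up different parts of their own clusters. By the rule used for PHD WT, that is 4 or more junctions with gaps of at most 1000 bp, PHD M880A had 56 clusters in the genome, and 42 of them (75%, 62.3 to 84.5) met one of the 529 foci. Full WT had 727 clusters, of which 246 (33.8%, 30.5 to 37.4) did. Both shares follow in part from the rule. Full M880A, which the rule did not use, had 527 clusters, of which 131 (24.9%, 21.4 to 28.7) met one of the 529 foci and 300 (56.9%) met any PHD WT region. In turn, 132 of the 529 foci (25%, 21.5 to 28.8) and 158 of the 883 (17.9%, 15.5 to 20.6) met a Full M880A cluster. The 529 were also wider and fuller, and these shares were not compared within size classes.

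Foci with more PHD M880A junctions also held more Full M880A. The density of Full M880A was 0.870 per kb (0.808 to 0.936) in foci with 1 PHD M880A junction, 0.947 (0.836 to 1.07) with 2, 0.956 (0.787 to 1.15) with 3 and 1.68 (1.48 to 1.91) with 4 or more. The first 3 intervals overlap, and the last lies above them. Full WT, at 1.45, 1.42, 1.55 and 2.04 per kb, and PHD WT, at 2.99, 3.37, 3.16 and 3.89 per kb, were also highest in the last group. Its 42 foci had a median width of 3632 bp against 2316 bp in those with 1 PHD M880A junction, and Full M880A was present in 41 of them.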

How the data were processed

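Integration sites were listed for 4 libraries, 1 per group, and groups were taken from the sample characteristics. The authors deposited a 9-column BED list per library whose other columns are positions. Integration sites in these lists derive, per the file headers, from paired-end reads. The submitters' processing notes name mm9 and MACS 1.4.2, the latter with no role. An aligner and filters were not given in the sources used here. Scores, as deposited by the authors, are all 0 and were ignored. The number after each read name was taken as reads, from its values only. Its minimum is 2, and PCR reads are not independent molecules, so positions were counted.

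The junction was the start plus 1 on the plus strand and the end on the minus strand. Foci, padding and membership follow the rule in the opening. Flanks left out every PHD WT focus and counted each base once within a set of foci. A base beside both a member and a comparison focus could count for both sets, which the intervals of the flank ratios do not take into account. Shares have Wilson intervals, ratios exact conditional binomial intervals, densities exact Poisson intervals and Mantel-Haenszel ratios Greenland-Robins intervals, all of 95%. The foci, their rule and the size classes were chosen with earlier results of these data known. Foci were named by rule: the 10 with most PHD M880A, the 10 with most Full M880A, the 5 with most PHD WT and the 5 with most Full WT junctions, those with PHD M880A at least at PHD WT, and foci next to the threshold. Not all are printed. Planned gene and sequence comparisons were not run, since no mm9 genome or annotation was used here. The code was tested on simulated data. Python 3.11.15, numpy 2.4.6 and scipy 1.17.1 were used.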

Additional observations from a re-analysis of the deposited data

How the results depend on the processing

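Each of 8 values was recomputed under up to 20 alternatives, 128 values in all. Of these, 79 stayed within the counting interval of the reported value (or within 1.5 times the reported number of foci) and 49 did not. A turn of direction was defined only for the density ratio and the flank ratio, recomputed 20 and 16 times, and 0 of these turned. The ratio of Full M880A densities between members and the 883 foci stayed above 1 throughout, from 1.01 to 1.46. Its interval nevertheless held 1 in every class of PHD WT junctions, and with classes of both wild-type counts (0.947 to 1.11). Of the 529 foci, 342 rest on 1 PHD M880A junction. Replacing 1 by 2 or more PHD M880A junctions gave 187 foci (10.8% of all), 85.0% with Full M880A, a density ratio of 1.46, a flank ratio of 1.43, a median of 9 PHD WT junctions and a median width of 2803 bp. At least 10 reads gave 304 foci, shares with Full M880A of 72.4% in members and 60.9% in other foci, and a median of 6 PHD WT junctions. Gaps of 500 bp gave 28.2% of all foci, a median of 6 and a width of 1875 bp. Gaps of 2000 bp gave a ratio of 1.37 and a width of 3012 bp. With 3 or more PHD WT junctions, members were 24.2% of all foci, the shares with Full M880A 73.2% and 60.3%, the median 6 and the width 2288 bp. With 5 or more, members were 35.5%, the share in other foci 70.2%, the median 8 and the width 2672 bp. Without padding, members were 21.2%, the share in other foci 56.1%, the median 8 and the width 1685 bp. With 1000 bp of padding, members were 36.2%, their share with Full M880A 82.0%, the ratio 1.34 and the width 3345 bp. In classes of PHD WT junctions the shares were 62.1% and 58.7%, 64.1% and 61.1%, 81.3% and 78.5%, and 91.7% and 80.4%, and the ratio left its interval at 1.01, 1.06 and 1.14 in the 3 larger classes. Flanks of 5 kb gave 1.33. Alternatives added after the data were seen were the absence of a Full WT condition (34.7% of all foci, 62.1% of other foci with Full M880A), the Mantel-Haenszel ratios (1.10 and 1.02), and leaving out 4 foci on chromosome 19, which moved no value beyond its interval. Merging positions within 10 bp, leaving out identical positions, autosomes only and the other end as the junction moved none either. No paired analysis was possible because each group has 1 library.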
